A study of Mus musculus with 6 samples.

Results

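*Esr1*-positive type 2 alveolar epithelial cells (AEC2s) of the lung libraries labelled Zip8 knockout were examined one cell at a time and as summed counts. A cell was a member when it passed an AEC2 gate and carried at least 1 unique molecular identifier (UMI, 1 counted transcript molecule) assigned to *Esr1*, so the members were chosen by their own *Esr1* and gate gene counts, whose values are given as a description. The gate took barcodes with at least 500 genes, at least 1000 UMIs and under 15% mitochondrial UMIs, with UMIs of at least 3 of the 4 AEC2 genes *Sftpc*, *Lamp3*, *Slc34a2* and *Etv5*, and with none of *Ptprc*, *Cdh5*, *Col1a2* or *Foxj1*, which mark leukocytes, endothelium, fibroblasts and ciliated cells. There were 922 members, 509 in the library labelled Zip8 knockout 1 and 413 in the library labelled Zip8 knockout 2, of 4176 gated AEC2s and 11243 kept barcodes in these 2 libraries. All 6 libraries of the study together held 44096 kept barcodes and 11414 gated AEC2s.

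The study sequenced CD45- cells, magnetically depleted of leukocytes, from lungs of C57BL/6 mice aged 10 to 12 weeks by droplet 3′ single-cell RNA sequencing. The 2 knockout libraries came from mice the study calls Zip8AEC2, in which SFTPC-CreER recombines floxed *Slc39a8* (Zip8, a zinc importer) and a Rosa26 tdTomato reporter after tamoxifen. The 4 control libraries came from littermates, and the lungs were taken 2 weeks after 4 doses of tamoxifen. Which of these alleles the controls carried, and how many mice went into a library, are not given for these libraries in the sources used here, so the spread between libraries may be partly technical. For its organoid cultures, a separate experiment, the study describes control mice that carried SFTPC-CreER and the reporter without floxed *Slc39a8*. The control libraries held 105774150, 114018446, 118771907 and 93852253 UMIs, and the libraries labelled Zip8 knockout held 107957330 and 103337822.

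CreER is Cre recombinase fused to the hormone-binding part of the estrogen receptor, and it enters the nucleus when tamoxifen binds. In the SFTPC-CreER line the promoter of surfactant protein C drives it, so that recombination is aimed at AEC2s, the cells that make and store pulmonary surfactant and that renew the alveolar epithelium by dividing and by turning into flat type 1 cells (AEC1s). The deposited counts are totals per gene, so a read from the estrogen receptor part of the fusion and a read from the endogenous receptor gene cannot be told apart in them. *Esr1* lies at chr10:4611593-5005614 on the plus strand of mm10, and *Slc39a8* at chr3:135825279-135888572 on the plus strand.

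Features of the libraries themselves stood apart before any comparison. Of 51485 distinct barcodes, 13923 occurred in more than 1 library. Among the members, 256 in knockout 1 and 245 in knockout 2 had a barcode that another library also held. The copy in the other library had a median of 4.04% and 3.98% as many UMIs as the gated cell, and the other copy was the larger one for 7 and 1 members. Library knockout 1 also differed from the other 5 in genes of inflamed AEC2s. The summed level of 17 such genes was 9464 CPM (UMIs of a gene in a summed class of cells, scaled to a class total of 1000000) in its members and 10876 in its matched *Esr1*-negative cells, against 2417 and 2415 in knockout 2 and 1213 to 2222 in the control libraries. The difference was in *Esr1*-positive and *Esr1*-negative cells of knockout 1 alike, and comparisons with the controls carry it.

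The gate fixed the presence of the AEC2 markers in the members, so their levels describe the cells and do not check the label. All 4 gate genes were seen in 98.2% of members of knockout 1 and 98.3% of knockout 2. *Sftpc* reached 101522 and 106235 CPM in the summed members, *Slc34a2*, the phosphate transporter, 6551 and 6446, *Lamp3*, a lamellar body membrane protein, 1744 and 1656, and *Etv5*, a transcription factor of AEC2 identity, 523 and 588. Surfactant genes that the gate did not use were abundant in the members as well, *Sftpa1* at 21016 and 23560 CPM and *Sftpb* at 10287 and 11154.

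*Esr1* UMIs separated the labels in gated AEC2s. In knockout 1, 509 of 2501 gated cells carried *Esr1*, a share of 20.4% (95% exact binomial interval 18.8 to 21.98), and in knockout 2 it was 413 of 1675, or 24.7% (22.6 to 26.8). In the control libraries 5 of 2058, 3 of 649, 9 of 1363 and 7 of 3168 gated cells carried it, shares of 0.243%, 0.462%, 0.660% and 0.221%. Every knockout-labelled share thus exceeded every control share, and these intervals, like all others given for cells, cover counting error only. Summed over the gated cells, *Esr1* stood at 16.5 and 19.2 CPM in the knockout-labelled libraries and at 0.260, 0.344, 0.541 and 0.202 in the controls. With every cell thinned to 2000 UMIs, which left out 131 and 19 shallower cells, the shares were 3.94% and 4.37%, and 0.0116% to 0.141% in the controls.

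A member usually carried a single *Esr1* molecule. In knockout 1, 427 members had 1 *Esr1* UMI, 73 had 2 and 9 had 3 or more, with 4 the most in a cell. In knockout 2 the numbers were 338, 67 and 8, with 5 the most. If every UMI of every gated AEC2 of a library had the same probability of being *Esr1*, 421, 67.0 and 15.1 cells of knockout 1 and 331, 57.8 and 15.8 cells of knockout 2 would be expected with 1, 2 and 3 or more. Without the gated cells in which *Sftpc* was under 2% of UMIs, described below, the expectation was 435, 67.2 and 9.13 cells against 423, 72 and 9 found in knockout 1, and 349, 59.2 and 8.60 against 334, 66 and 8 in knockout 2. Without those cells the numbers with 1 thus moved from above to below the expectation, and those with 3 or more came close to it. Over all gated cells the single rate gives 503 and 405 positive cells in all, against the 509 and 413 found. A rate this low leaves most gated cells with 0 *Esr1* UMIs, so the *Esr1*-negative cells below are cells in which none was counted, not cells shown to lack the transcript.

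The positive share was higher in deeper cells, except in the deepest quintile of knockout 1. Over quintiles of the gated cells ordered by total UMIs, the positive share was 6.39%, 20.4%, 26.1%, 30.6% and 18.4% in knockout 1 and 17.3%, 19.1%, 26.9%, 29.3% and 30.7% in knockout 2. The single rate would place 191 positive cells in the deepest quintile of knockout 1, and 92 were found. Part of the drop in that quintile went with cells low in *Sftpc*. When gated cells with *Sftpc* under 2% of their UMIs were left out, a choice made after the data were seen, the deepest quintile had 29.4% and 38.1% positive cells, against 7.40% and 17.9% in the shallowest. In knockout 1 it still lay below the quintile before it, at 31.7%, and held 131 positive cells where the single rate gives 156.

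**Figure D1:**
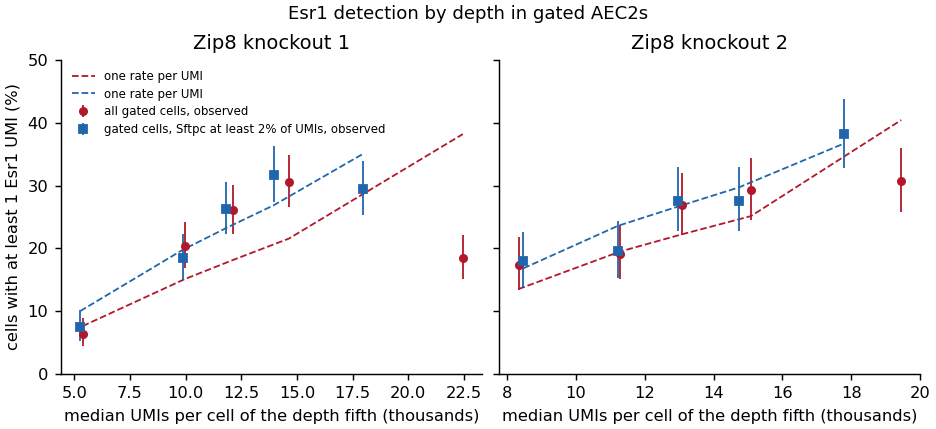
Share of gated AEC2s with at least 1 *Esr1* UMI (percent, vertical axis) in quintiles of the cells by total UMIs (median UMIs of the quintile, horizontal axis, in units of 1000), for each knockout-labelled library. Circles are all gated cells and squares are gated cells with *Sftpc* at 2% or more of their UMIs, bars are 95% exact binomial intervals, and dashed lines are the share expected from 1 rate per UMI. The deepest quintile of all gated cells lies below its dashed line, at 18.4% in knockout 1 and 30.7% in knockout 2.

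The share of *Esr1*-positive cells followed *Sftpc*. Below 2% *Sftpc*, only 5 of 275 cells of knockout 1 (1.82%) and 5 of 115 of knockout 2 (4.35%) were positive. The share was 12.1% and 15.8% at 2 to 6% *Sftpc*, 23.8% and 22.5% at 6 to 10%, 24.2% and 29.3% at 10 to 14%, and 23.6% and 25.7% above 14%. Above 6% *Sftpc* it thus stayed between 22.5% and 29.3%. The cells at 2 to 6% were shallower in knockout 1, with a median of 5451 UMIs against 11948 at 6 to 10%, and *Esr1* stood at 15.7 CPM in the first and 21.8 in the second, and at 12.2 and 21.1 in knockout 2. The cells below 2% were another kind of gated barcode: their median depth was 37977 and 51756 UMIs, and *Scgb1a1*, the secretory protein that defines club cells, held 53.2% and 55.2% of their UMIs, against 2.69% and 1.60% in the other gated cells. They made up only 5 members in each library. Without them the positive shares were 22.6% and 26.2%.

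Among other gated classes the labels were not separated in the same way. Their gates left out barcodes with *Lamp3* UMIs, except the ciliated gate, which kept them. Of endothelial cells, 2.27% and 4.69% carried an *Esr1* UMI in the knockout-labelled libraries and 2.09% to 8.92% in the controls. Of fibroblasts, the shares were 10.0% and 2.88%, against 3.84% to 6.32%. Club cells had 0.649% and 4.35%, against 0.353% to 2.65%. In ciliated cells both knockout-labelled shares, 3.87% and 3.00%, lay above all control shares, which were 0% to 1.46% (0 of 370 cells in control 4, which allows a share of up to 0.811% at 3 counts and 0.992% by the exact binomial interval). The AEC1 gate held 21 and 15 cells in the knockout-labelled libraries, none with an *Esr1* UMI, which allows shares of up to 14.3% and 20% at 3 counts, and 16.1% and 21.8% by the exact interval. The leukocyte gate held 13 and 1 cells, of which 1 and 1 carried *Esr1*, against 1 of 18, 0 of 19, 0 of 5 and 0 of 25 in the controls, too few to place. Leukocytes aside, the AEC2 share was the highest of the gated classes in each knockout-labelled library, but the classes differed in depth, with median UMIs of 3387 and 3453 in endothelium, 8872 and 10576 in fibroblasts and 12119 and 13079 in AEC2s. With cells thinned to 2000 UMIs the next share after the AEC2s was 2.33%, in fibroblasts, in knockout 1 and 1.41%, in endothelium, in knockout 2. As a level the distance was smaller, 14.5 CPM in those fibroblasts against 16.5 in AEC2s and 14.9 in that endothelium against 19.2. The level of *Esr1* in free RNA was not measured.

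**Figure D2:**
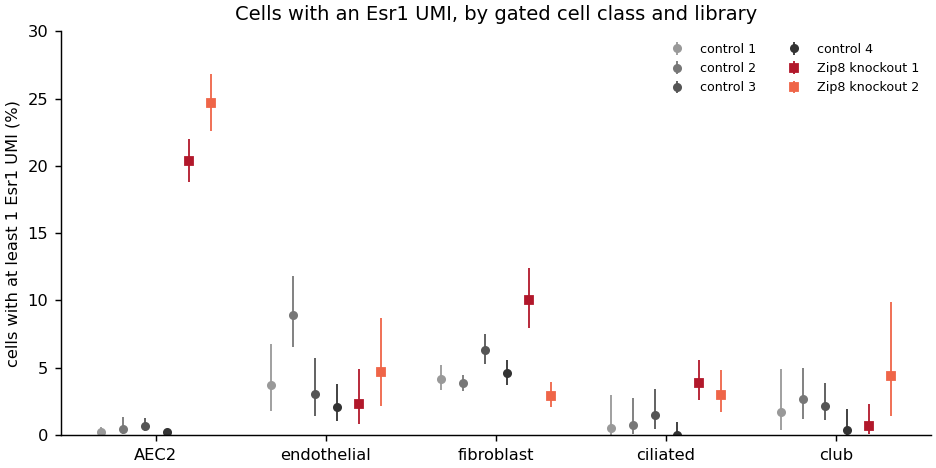
Share of cells with at least 1 *Esr1* UMI (percent, vertical axis) by gated cell class (horizontal axis), 1 point per library with its 95% exact binomial interval, circles for controls and squares for libraries labelled Zip8 knockout. AEC2s of the knockout-labelled libraries stand at 20.4% and 24.7% and AEC2s of the controls at 0.221% to 0.660%, while in endothelial, fibroblast and club cells the labels overlap.

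For all further comparisons each member was matched with an *Esr1*-negative gated cell of the same library of nearly the same total UMIs, and 413, 324, 413 and 413 control cells were drawn to the same depths. The matched classes had median depths of 13112 and 13113 UMIs in knockout 1, 13731 and 13726 in knockout 2 and 13465 to 13470 in the controls. Genes per cell were 3303 and 3310 for members and negatives of knockout 1, and 3407 and 3440 in knockout 2. Mitochondrial UMIs were 7.64% and 7.05%, and 8.27% and 8.38%. Depth, gene number and mitochondrial share were therefore close between members and negatives, but *Sftpc*-low cells were not matched: they were 5 of the members and 32 of the negatives in knockout 1, and 5 and 13 in knockout 2. Of the drawn cells of controls 1 to 4, 12, 16, 9 and 12 were *Sftpc*-low, so they were not matched between members and controls either. All levels below are CPM of such summed classes, and in sums fewer cells with a transcript and less RNA per cell cannot be told apart.

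*Slc39a8*, the gene the knockout targets, did not separate the labels or the depth-matched classes. Its level in members was 248 CPM in knockout 1 and 234 in knockout 2, in the *Esr1*-negative cells 233 and 242, and in the control libraries 241, 220, 210 and 224 (224 ± 12.9, SD, n = 4). The members lay within or just above the range of the controls and of the negatives. By edgeR's quasi-likelihood test across all genes, with Benjamini-Hochberg adjustment, members differed from negatives by 0.00 on the log2 scale (SE 0.05, 95% interval -0.09 to 0.10, adjusted p = 0.994) and from controls by -0.00 (SE 0.09, interval -0.20 to 0.20, adjusted p = 0.993). Without depth matching it was called higher in members than in negatives (0.19, adjusted p = 0.000183). The negatives differed from controls by -0.01 (SE 0.09, interval -0.21 to 0.19). At least 1 *Slc39a8* UMI was seen in 91.2% and 91.8% of members, 89.0% and 93.5% of negatives and 88.9% to 92.3% of control cells. Reads were counted near the 3′ end, and a count per gene holds no record of whether a deleted exon is present, so these values do not check the deletion. Directions between the groups below are therefore directions between labels.

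*Slc39a8* was set beside the number of *Esr1* UMIs in a cell. In knockout 1 its level was 233 CPM in matched cells with 0 *Esr1* UMIs, 253 with 1, 226 with 2 and 210 with 3 or more. In knockout 2 it was 242, 232, 247 and 220. The lowest value of each library was that with 3 or more, which rests on 9 and 8 cells and has exact Poisson intervals of 140 to 304 and 150 to 312 that take in the other values, and the order of the other 3 was not shared by the libraries. *Sftpc*, the gene for which the SFTPC-CreER line is named, was lowest with 0 *Esr1* UMIs and highest with 2 in both libraries. In the same order it was at 91965, 100346, 108072 and 102073 in knockout 1 and at 101128, 105134, 112241 and 104256 in knockout 2.

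*Sftpc* itself was lower under the knockout label, with or without *Esr1*. Its summed level was 101522 and 106235 CPM in members, 91965 and 101128 in negatives, and 166922, 165821, 184305 and 183318 in controls. The median share of *Sftpc* in a cell was 10.6% and 10.98% in members, 10.3% and 10.7% in negatives and 17.8% to 19.8% in controls. The distributions of the labels were largely apart: 5.89% and 3.63% of members had more than 15% *Sftpc*, 2.36% and 3.87% of negatives did, and 78.1% to 87.9% of control cells did. As a gate gene *Sftpc* is described here and not tested.

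**Figure D3:**
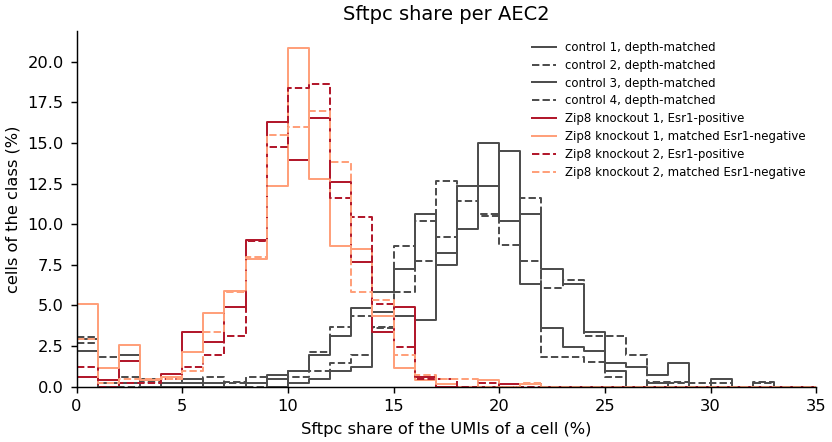
Distribution of the share of a cell's UMIs that are *Sftpc* (percent, horizontal axis) as the percent of cells of the class in each bin (vertical axis), 1 line per library and class of depth-matched AEC2s. Members and *Esr1*-negative cells of the knockout-labelled libraries have medians of 10.3% to 10.98%, with 5.11% of the negatives and 0.589% of the members of knockout 1 in the lowest bin, and the control libraries lie to their right, with medians of 17.8% to 19.8%.

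Which genes differ between *Esr1*-positive AEC2s and *Esr1*-negative AEC2s of the same library was asked across 11234 genes, with library as a block. The test has 1 residual degree of freedom and rests on the spread shared by all genes, with little or no weight on a gene's own. A gene can therefore be called though the libraries go opposite ways. By edgeR's test 73 genes passed an adjusted p of 0.05 (0.65%), 9 of them higher in members (0.0801%) and 64 lower (0.57%), whereas DESeq2 called 1 gene, *Hp*, and edgeR without the library block called 0, with 104 at an unadjusted p under 0.05. Without the cells whose barcode another library also held, 5 genes were called, 1 of them among the 73. Among all genes tested, 25.1% were higher in members of both libraries and 26.6% lower in both, and of the called genes 8 were higher in both and 56 lower in both. The median difference over all genes was -0.00 on the log2 scale. With 2 pairs an exact permutation test of a single gene cannot go below p = 0.5.

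Genes of club cells were the list with the most members called lower. Of 10 club genes, all tested, 9 were called lower in members, with a median log2 difference of -0.63. For 1 of them, *Reg3g*, an antimicrobial lectin, the libraries went opposite ways (16.5 and 26.0 CPM in members against 56.0 and 10.2 in negatives). *Scgb1a1* stood at 38744 CPM in members and 70413 in negatives of knockout 1, at 31301 and 44497 in knockout 2, and at 51194, 42251, 46015 and 45486 in controls. Members were below negatives in both libraries and below all controls, while the negatives of knockout 1 were above them (members against negatives, log2 difference -0.70, SE 0.03, edgeR adjusted p = 4.52e-137). *Scgb3a2*, a sister secretoglobin, was 575 and 548 against 1138 and 620 (-0.62), and *Scgb3a1*, typical of the larger airways, 411 and 487 against 780 and 607 (-0.65). *Scgb3a1* rested on few cells: 5 cells held 69.8% of its UMIs, and in knockout 2 a single cell held 2700 of 2961 UMIs of the members and another 2219 of 3678 of the negatives. *Cyp2f2*, the club cell monooxygenase, was 498 and 555 against 804 and 711 (-0.55). *Aldh1a1*, an aldehyde dehydrogenase, was 75.6 and 52.6 against 117 and 73.0 (-0.59), and *Bpifa1*, an antimicrobial airway protein, 142 and 14.6 against 163 and 79.6, with 36.8% of its UMIs in 1 cell. *Cbr2*, which AEC2s also express, was the member of the list that was not called, at 3231 and 3542 against 3347 and 3522 (-0.04, adjusted p = 0.917).

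The summed level of the 10 club genes was 44798 and 37198 CPM in members, 78185 and 50927 in negatives and 57162, 48250, 52144 and 51495 in controls. *Scgb1a1* made up 88.0% of it, and no gene of the list was at 0 in any class. The *Sftpc*-low cells, of which the negatives held more, moved with it. With those cells left out of both classes, the difference for *Scgb1a1* was 0.07 (adjusted p = 0.848), for *Cyp2f2* -0.11 and for *Aldh1a1* -0.03, none of them called. *Scgb3a1* (-1.10) and *Scgb3a2* (-0.38) were still called, but for members with at least 2 *Esr1* UMIs they turned to 3.11 and 0.26, and *Bpifa1* to 3.102. In all, 41 genes were then called, 35 of them among the 73, with 4 of the club list and 4 of the transitional list.

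Genes of the transitional state, through which AEC2s pass on the way to AEC1s and which accumulates in injured lungs, came next: 7 of 20 tested were called lower in members and 0 higher, 3 of the 20 having a positive difference (median -0.26). Of the 7, *Sfn*, an epithelial 14-3-3 protein, was lower in knockout 1 alone, at 21.2 and 16.8 CPM in members against 36.2 and 15.4. *Lgals3*, a galectin of that state, was 96.0 CPM in members and 217 in negatives of knockout 1, 59.9 and 71.7 in knockout 2, and 85.0, 83.6, 69.1 and 75.7 in controls. The negatives of knockout 1 stood above all other classes, and without the *Sftpc*-low cells the difference, -0.88 at first (SE 0.06, adjusted p = 3.74e-40), was -0.78 and still called. *S100a6*, a calcium-binding protein, was 37.8 and 61.8 in members, 77.2 and 72.0 in negatives and 210, 117, 128 and 89.97 in controls (-0.64, but 1.81 for members with at least 2 *Esr1* UMIs). *Krt19*, an epithelial keratin, was 61.6 and 39.6 against 80.6 and 47.7 (-0.37), and *Anxa1*, an annexin, 42.5 and 36.5 against 66.8 and 46.6 (-0.55). In controls *Krt19* was 42.9 to 66.2 and *Anxa1* 43.6 to 65.3, so that members lay below all controls for *Anxa1* and overlapped for *Krt19*. *Sprr1a*, a cornified-envelope protein, and *Cldn4*, a tight-junction claudin, rested on few cells: *Sprr1a* UMIs were found in 15 cells of the knockout-labelled classes with 29.3% of them in 1 cell, and *Cldn4* in 33 cells with 30.6% in 1 cell.

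Of 14 AEC1 markers tested, *Hopx*, a homeodomain-only factor, was called, at 40.3 and 44.2 CPM in members against 55.4 and 74.8 in negatives (-0.63), and the list's median was -0.35. In the negatives of knockout 2 a single cell held 160 of 453 *Hopx* UMIs. Of 6 proliferation genes tested, *Stmn1*, which destabilises microtubules, and *Mki67*, the cell-cycle antigen, were lower in members. *Stmn1* was 38.4 and 55.2 against 42.0 and 81.8 (-0.40), with 87 of the 495 UMIs of the knockout 2 negatives in 1 cell. *Mki67* UMIs came from 24 cells, 37.9% of them from 1, and the level was 0.831 and 2.14 against 2.36 and 11.1. In 8 ciliated cell genes, *Sec14l3* (131 and 139 against 153 and 162) and *Tppp3* (75.7 and 60.7 against 84.1 and 77.1) were lower in members, with differences of -0.24 and -0.26. The summed ciliated genes stood at 265 and 280 in members, 312 and 316 in negatives and 221 to 263 in controls, with *Sec14l3* at 52.6% of them and none at 0. Their part in the other differences was not tested.

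Of the 9 genes called higher in members, 6 were spread over many cells. *Malat1*, a nuclear long noncoding RNA, was 17793 and 16804 CPM in members, 16347 and 13960 in negatives and 17668, 12992, 13746 and 19166 in controls. Members were above negatives in both libraries and within the range of the controls (log2 difference 0.17, SE 0.03, adjusted p = 1.65e-06). *Lyz1*, a lysozyme made by a subset of AEC2s, was 829 and 2090 in members, 596 and 1761 in negatives and 641, 740, 415 and 1524 in controls. It differed more between libraries of one label than between members and negatives (0.34, SE 0.04, adjusted p = 1.31e-16), and it was the called gene of 19 surfactant and lamellar body genes, 17 of which were nominally higher in members (median 0.05). For members with at least 2 *Esr1* UMIs the difference of *Lyz1* was -0.09 (adjusted p = 0.928). *Bex2*, a small adaptor protein on the list of growth and progenitor genes, was 282 and 339 against 206 and 320 (0.25, SE 0.05, adjusted p = 9.71e-05), the only one called of 16.

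*Zdhhc3*, a palmitoyltransferase, was 489 and 656 CPM in members against 428 and 556 in negatives (0.20, SE 0.04, adjusted p = 0.00104). *Pbx3*, a homeodomain cofactor, was 38.4 and 42.1 against 27.0 and 33.2 (0.40, SE 0.10, adjusted p = 0.0145), and *Snx22*, a sorting nexin, 42.0 and 38.0 against 31.3 and 28.4 (0.40, SE 0.10, adjusted p = 0.0166). Each of the pair was seen in more members than negatives: *Pbx3* in 41.1% and 44.1% against 31.2% and 36.3%, and *Snx22* in 38.1% and 37.3% against 33.4% and 33.2%. No cell held more than 2.06% of the UMIs of these 6 genes. Without the *Sftpc*-low cells *Pbx3* was no longer called (0.36, adjusted p = 0.0857), while *Malat1* (0.19), *Lyz1* (0.33), *Bex2* (0.22), *Zdhhc3* (0.17) and *Snx22* (0.39) were. In controls *Pbx3* was 40.8, 34.1, 33.0 and 37.3 and *Snx22* 38.1, 29.96, 28.8 and 29.9.

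The other 3 genes called higher were less evenly spread. *Saa3*, an acute-phase protein, was 43.8 and 0.329 CPM in members and 9.004 and 0 in negatives, with 50.7% of its UMIs in 1 cell. *Cxcl2*, a neutrophil chemokine, was 47.6 and 3.29 against 11.9 and 9.58, opposite in the libraries. *Cd83*, an activation antigen, was 33.1 and 13.5 against 21.1 and 11.4 (0.50, SE 0.14, adjusted p = 0.0448), was found in 293 cells with 7.56% of its UMIs in 1, and was lost without the *Sftpc*-low cells. *Itln1*, a secreted lectin and the lower gene with the smallest p, was 35.6 and 0 in members against 250.3 and 1.49 in negatives, with 57.3% of its UMIs in 1 cell. *Retnla*, the third called gene of 13 inflammatory genes tested, was 1478 and 24.2 in members against 2905 and 23.3, and so lower in members of knockout 1 alone.

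**Figure D4:**
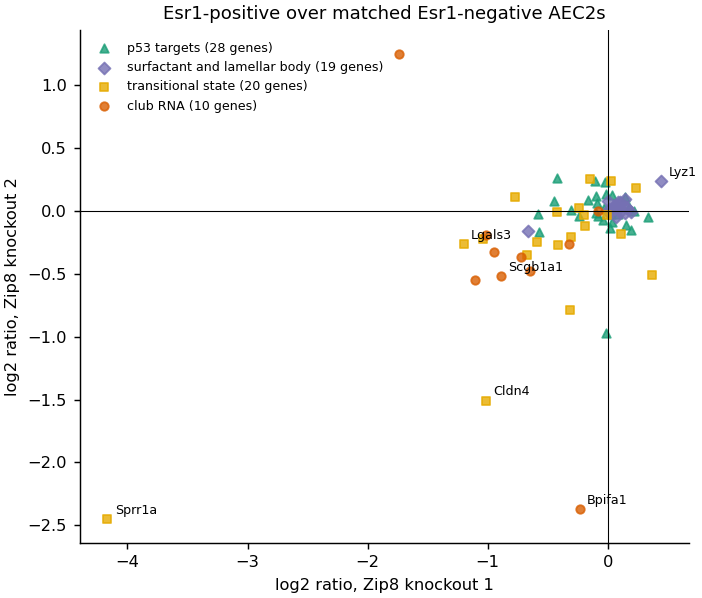
Log2 ratio of members over matched *Esr1*-negative AEC2s in knockout 1 (horizontal axis) and knockout 2 (vertical axis), 1 point per tested gene of the p53 target, surfactant, transitional and club lists. Club and transitional genes lie mostly in the lower left quadrant, such as *Scgb1a1* and *Lgals3*, the surfactant and p53 target lists have medians of 0.05 and -0.01, with single p53 targets away from 0 such as *Phlda3* at -0.58 in knockout 1, and *Lyz1* stands highest among the surfactant genes.

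No gene was called between members and negatives in 21 of 29 lists by edgeR's test. These included 12 estrogen receptor targets and partners, 10 Slc39 importers, 6 Slc30 exporters, 6 metallothionein and zinc-response genes, 13 sirtuin and NAD synthesis genes, 28 p53 targets, 20 lipid synthesis genes, 13 class I and 7 class II histocompatibility genes, 11 interferon-response genes, 17 dissociation stress genes, 14 endoplasmic reticulum stress genes and 13 mitochondrially encoded genes. The medians of these 13 lists ran from -0.13 for the zinc-response genes to 0.14 for sirtuins and NAD synthesis. Of the classical estrogen targets, *Tff1*, *Tff3* and the partner *Gata3* had 0 UMIs in all 8 classes, and *Greb1* was 1.66 and 10.9 CPM in members, 1.52 and 9.25 in negatives and 3.70 to 4.99 in controls, apart by library and not by *Esr1*. The lists of other cells' RNA held 4 macrophage, 5 endothelial, 9 fibroblast, 3 mesothelial, 4 erythroid and 1 smooth muscle genes tested, none called, the mesothelial genes with a median of 0.36.

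Against control AEC2s the members differed in few genes at the test's threshold. Of 11221 genes tested over the 2 knockout-labelled and 4 control libraries, edgeR called 5 (0.0446%), 4 higher in members (0.0356%) and 1 lower (0.00891%), apart from genes of the rule. At an unadjusted p under 0.05 there were 975. Without knockout 1 edgeR called 3 genes and without knockout 2 it called 168, the remaining library then being assumed to vary like the controls; DESeq2 on all 6 called 32. Without the cells whose barcode another library held, edgeR called 3, of which 1, *Bmp1*, was among the 5. On counts scaled by trimmed mean of M-values (TMM) factors, 8.23% of genes were higher in both sums of members than in all 4 controls, and 8.35% lower. The matched *Esr1*-negative cells were compared with the same control cells over 11261 genes, of which 4 were called (0.0355%), all higher, with 897 at an unadjusted p under 0.05, and 7.98% of genes lay above and 7.96% below all controls. Both comparisons use the same controls, so their values are set side by side only. For a single gene the exact permutation test of 2 against 4 libraries cannot go below p = 0.0667.

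The gene next to *Sftpc* had the smallest p among them. *Bmp1*, a protease that cleaves procollagen and other matrix precursors, lies at chr14:70474558-70520234 on the minus strand of mm10, 714 bases from *Sftpc* at chr14:70520949-70524081 on the same strand. It stood at 180 and 194 CPM in members, 152 and 207 in negatives, and 66.9, 67.1, 58.7 and 48.3 in controls. Both knockout-labelled classes were above every control library and overlapped with each other. Members exceeded controls 2.88-fold (log2 difference 1.53, SE 0.11, 95% interval 1.28 to 1.77, adjusted p = 0.000347), the negatives 2.80-fold (1.49, SE 0.14, adjusted p = 0.00418), and members and negatives differed by 0.05 (adjusted p = 0.952). *Bmp1* was called in members and in negatives under each of 19 alternative settings. A *Bmp1* UMI was found in 84.9% and 88.9% of members, 77.8% and 87.9% of negatives and 43.6% to 54.6% of control cells.

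The transcript of the reporter locus was higher as well. *Gt(ROSA)26Sor*, the noncoding RNA of the Rosa26 locus into which the tdTomato reporter is placed, lies at chr6:113067428-113077333 on the minus strand. It was 17.7 and 22.4 CPM in members, 18.6 and 18.8 in negatives and 8.40, 7.599, 6.73 and 7.06 in controls. Members exceeded controls 2.48-fold (1.31, SE 0.15, adjusted p = 0.0108) and the negatives did so by 1.24 (SE 0.14, adjusted p = 0.0124), again without overlap with the controls. Members and negatives differed by 0.07 (adjusted p = 0.989). The call was lost in 8 of the 19 settings for members (adjusted p up to 0.453), among them without control 3 (0.0553) or control 4 (0.0687) and with the replicate number as a block (0.0706), and in 9 for the negatives (up to 0.593). The neighbours of the locus did not share the direction: *Setd5*, a chromatin regulator 31 bases away, was 64.8 and 106 in members against 103 to 111 in controls (-0.43, adjusted p = 0.478), and *Thumpd3*, which overlaps the locus by 846 bases, 8.45 and 8.06 against 9.12 to 12.6 (-0.48, adjusted p = 0.511).

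Where the CreER transgene sits in the genome is not given in the sources used here. The 5 tested genes at *Slc39a8*, at or beside Rosa26 and beside *Sftpc* were thus split. *Bmp1* and *Gt(ROSA)26Sor* were called higher, and *Slc39a8*, *Setd5* and *Thumpd3* were not called. With a larger number of *Esr1* UMIs neither called gene rose or fell steadily in both libraries. *Bmp1* was 152, 176, 205 and 143 CPM in knockout 1 with 0, 1, 2 and 3 or more *Esr1* UMIs, and 207, 194, 208 and 85.2 in knockout 2. It was highest with 2 and lowest with 3 or more in both. The lowest values rest on 9 and 8 cells, with exact Poisson intervals of 85.9 to 223 and 44.0 to 149. In knockout 2 that interval lies below the other values. *Gt(ROSA)26Sor* was 18.6, 18.4, 14.03 and 15.01, and 18.8, 20.7, 30.2 and 28.4, the last value of each library resting on 2 and 4 UMIs.

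The other called genes higher in members are targets of the tumour suppressor p53. *Cdkn1a*, the p21 inhibitor of cyclin-dependent kinases at chr17:29090976-29100727, was 148 and 124 CPM in members, 149 and 129 in negatives and 44.0, 71.6, 48.1 and 50.1 in controls. *Phlda3*, which restrains Akt signalling, at chr1:135766119-135769136, was 21.5 and 17.9 in members, 32.0 and 18.2 in negatives and 4.54, 4.99, 6.05 and 5.21 in controls. For each gene every knockout-labelled sum lay above every control. Members exceeded controls 2.37-fold for *Cdkn1a* (SE 0.16 on the log2 scale, adjusted p = 0.0196) and 3.50-fold for *Phlda3* (SE 0.17, adjusted p = 0.00234), and the corresponding log2 differences of the negatives were 1.30 (adjusted p = 0.0222) and 2.19 (adjusted p = 0.0124). In members the call of *Phlda3* was lost in 3 of the 19 settings (adjusted p up to 0.189), none of which left out a library, and that of *Cdkn1a* in 7 (up to 0.595), among them without knockout 1 (0.183), control 3 (0.118) or control 4 (0.0736) and with the replicate block (0.0819). For the negatives *Cdkn1a* was not called in 10 of the 19 settings (adjusted p up to 0.368) and *Phlda3* in 7 (up to 0.206). *Phlda3* was seen in 17.5% and 16.0% of members against 4.12% to 5.33% of control cells, and *Cdkn1a* in 57.0% and 51.3% against 27.1% to 39.2%.

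Of 28 p53 targets tested, these 2 were called, against 0.0446% of all genes, and 23 had a positive difference. Of the 28, 13 did not overlap with the controls, where 8.23% of all genes lay above and 8.35% below all controls. The median of the 28 was 0.32 against -0.00 over all genes. Among those not called, *Ccng1*, a cyclin induced by p53, was 52.3 and 43.4 against 25.9 to 30.8 (0.65, adjusted p = 0.160), *Bax*, which opens the mitochondrial outer membrane, 61.5 and 52.5 against 34.8 to 41.5 (0.49, adjusted p = 0.185), and *Trp53inp1* 49.0 and 40.1 against 25.6 to 29.7 (0.59, adjusted p = 0.166). *Mdm2*, the ligase that degrades p53, was 30.3 and 39.3 against 27.2 to 34.3 (0.09, adjusted p = 0.898), and *Btg2*, the most abundant gene of the list, 481 and 739 against 498 to 856 (-0.15, adjusted p = 0.881). The negatives gave 2 called of 27, against 0.0355% of all genes, and a median of 0.37. In them 12 did not overlap, against 7.98% of all genes above and 7.96% below all controls. Members and negatives differed by -0.05 for *Cdkn1a* (adjusted p = 0.953) and by -0.38 for *Phlda3* (SE 0.13, adjusted p = 0.203).

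**Figure D5:**
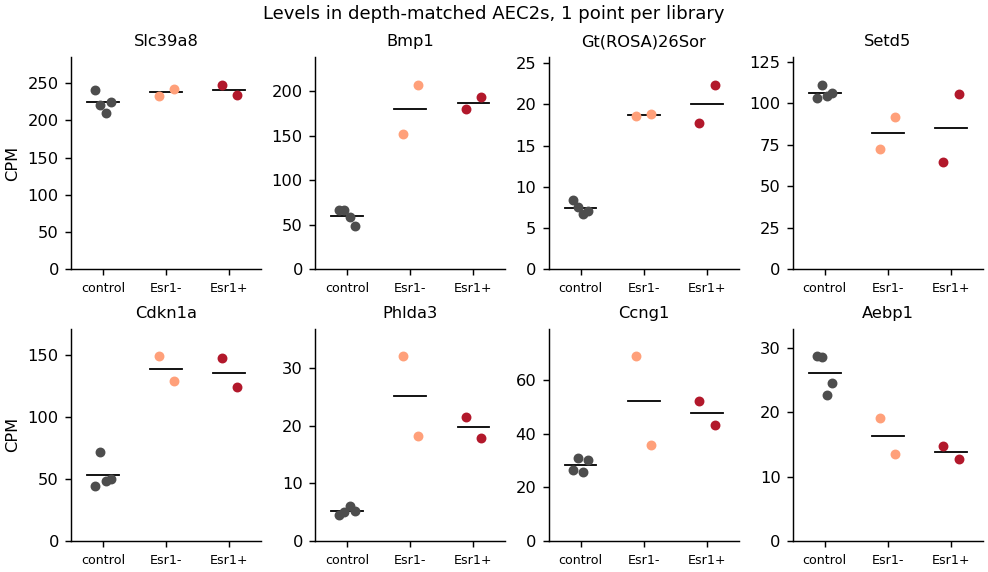
Level of 8 genes (CPM, vertical axis) in depth-matched AEC2s of control libraries, *Esr1*-negative cells and *Esr1*-positive members of the knockout-labelled libraries (horizontal axis), 1 point per library with the mean of the group as a bar. *Bmp1*, *Gt(ROSA)26Sor*, *Cdkn1a* and *Phlda3* lie above all 4 controls in both knockout-labelled classes, such as *Bmp1* at 152 to 207 against 48.3 to 67.1, and *Slc39a8* overlaps at 233 to 248 against 210 to 241.

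*Aebp1*, a secreted matrix-binding protein at chr11:5861947-5872088, was the gene called lower. It was 14.8 and 12.8 CPM in members, 19.1 and 13.5 in negatives and 28.7, 28.7, 22.7 and 24.6 in controls, without overlap (members against controls -1.02, SE 0.13, adjusted p = 0.0226, negatives -0.75, adjusted p = 0.358). Its call in members was lost in 12 of the 19 settings (adjusted p up to 0.784, with the difference down to -0.58), among them without knockout 1 (0.0885) or any 1 control (0.0553 to 0.0804). *Aebp1* is abundant in fibroblasts, and the fibroblast list moved with it. Of 10 genes tested none was called and 5 did not overlap, against 8.35% of all genes that lay below all controls. All 10 had a negative difference, with a median of -1.21. Their summed level was 218 and 478 in members, 228 and 488 in negatives and 683, 1031, 581.6 and 509 in controls, with *Gsn*, a gene AEC2s may also hold, at 43.0% of it and no gene at 0. The part of fibroblast RNA in the *Aebp1* difference was not tested. Genes that came nearest the threshold below it were *Timp2*, an inhibitor of matrix proteases (32.7 and 30.1 against 41.5 to 56.9, -0.74, adjusted p = 0.103), *Igfbp5*, an insulin-like growth factor binding protein (14.4 and 11.8 against 26.2 to 45.4, -1.46, adjusted p = 0.121), *Thbd*, thrombomodulin (1.38 and 0.987 against 4.04 to 6.51, -2.09, adjusted p = 0.134), and *Actb*, the cytoskeletal actin (1902 and 2040 against 2348 to 2558, -0.40, adjusted p = 0.166).

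Class II antigen presentation, a known activity of AEC2s, had no called gene but lay to one side. *Cd74*, the invariant chain, was 4475 and 3795 CPM in members, 4174 and 3642 in negatives and 2782, 2886, 2916 and 2741 in controls (0.44, adjusted p = 0.173). *H2-Aa* was 1202 and 1061 against 742 to 792 (0.45, adjusted p = 0.166), and *H2-Ab1* 818 and 638 against 469 to 484 (0.51, adjusted p = 0.233). All 7 genes had a positive difference, 6 lay above all controls, against 8.23% of all genes, and the median was 0.44. In the class I list the median was also 0.44 and all 13 differences were positive, and 1 gene lay above all controls, a share near that of all genes. Its summed level was 3700 in members of knockout 1, 1915 in knockout 2 and 1741 to 2162 in controls.

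The zinc, estrogen and surfactant lists had no called gene between members and controls. Of 10 Slc39 importers none stood apart from the controls (median -0.02), and of 7 Slc30 exporters and 6 zinc-response genes likewise none did (medians 0.01 and 0.04). The metallothionein *Mt1*, a zinc-induced gene, was 213 and 205 CPM against 150 to 275. Of 13 estrogen receptor targets and partners none was called (median -0.07), and 3 were below all controls, against 8.35% of all genes. Among the 3 was *Igfbp4*, at 5.68 and 8.55 against 11.8 to 21.9 (-1.39, adjusted p = 0.166). Of 19 surfactant and lamellar body genes none was called (median 0.13), and 5 were above all controls, against 8.23% of all genes. Among the 5 was *Napsa*, the aspartic protease that processes surfactant proteins, at 2905 and 2921 against 2167 to 2377 (0.25, adjusted p = 0.392). Sirtuin and NAD synthesis genes had 0 of 13 called and a median of 0.28, with 4 above all controls, against 8.23% of all genes. The deacetylase *Sirt1* was at 33.6 and 35.4 against 23.7 to 33.0 (0.20, adjusted p = 0.707).

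Of 21 transitional genes none was called between members and controls, and the median was -0.47. Below all controls lay 7 of them, against 8.35% of all genes. For the negatives against the same controls the median was -0.10, and 2 lay below all controls, against 7.96% of all genes. The part of *Sftpc*-low cells, which were rarer in members than in controls, was not tested for this list. Of 15 AEC1 markers none was called (median -0.19, and 0.03 for the negatives). Among 16 growth and progenitor genes none was called (median 0.01), and *Id2*, an inhibitor of differentiation, was 328 and 276 CPM against 227, 142, 127 and 123 (0.86, adjusted p = 0.287). Of 20 lipid synthesis genes none was called (median 0.14), and their sum was 23212 in members of knockout 1, 12575 in knockout 2 and 10076 to 13189 in controls. Of 12 inflammatory genes none was called (median 0.43), with the same split between the libraries: *Lcn2*, a siderophore-binding acute-phase protein, was 2547 and 446 against 366 to 472. Both programmes were highest in knockout 1. The summed inflammatory genes, at 2417 and 2415 in members and negatives of knockout 2, still lay above the 1213 to 2222 of the controls, and so did *Chil1*, a chitinase-like protein and the most abundant of them: it was 4465 and 1356 in members, 4597 and 1329 in negatives and 1236, 1116, 174 and 289 in controls (members against controls 1.97, SE 0.66, adjusted p = 0.429).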

How the data were processed

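The deposited files are count matrices: per the file headers the authors ran Cell Ranger 3.1.0, and the values are whole UMI counts per gene and barcode for 27998 mm10 genes, not normalized, in 6 libraries. Library totals were 93852253 to 118771907 UMIs. Cell filters, thinning to 2000 UMIs and depth matching were done in Python 3.11.15 with numpy 2.4.6, scipy 1.17.1 and pandas 2.3.3, and figures with matplotlib 3.10.9. The kit is named as version 2 chemistry in the labels. No doublet caller was run.

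UMIs were summed per library and class and tested with edgeR 4.0.16 (TMM factors, filterByExpr, quasi-likelihood test, R 4.3.3), members against negatives with library as a block, and members and negatives against controls without one. P-values were adjusted by Benjamini-Hochberg with 0.05 as the threshold. The adjustment ran over all genes past the low count filter, genes of the rule included. These were 11239 for members against negatives, 11226 for members against controls and 11265 for negatives against controls. Genes of the rule were left out afterwards, from the counts of genes tested and called. Overlap between groups was judged on TMM-scaled values. Mice per library are not given in the sources used here, so p-values measure only the spread between these libraries. DESeq2 1.42.0 was an alternative. The code was tested on simulated data with 1 dispersion for all genes. For members against controls it recovered 21% of genes changed by 0.5 on the log2 scale and 94% of those changed by 1, with 12 false calls. For members against negatives it recovered 63% and 95%, with 1 false call. A gene not called against controls may thus still differ by a small amount. Gene positions are from GENCODE vM21. Members and the 29 gene lists (379 genes, 377 in the files) were chosen with earlier results of these data known.

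Genes were named as the 10 with the smallest p in each direction among called genes whose libraries all showed the direction or, where fewer than 5 were called, the 5 with the smallest p and at least 50 UMIs, plus examples of each list by summed UMIs or p. *Cbr2*, *Greb1*, *Mdm2*, *Mt1*, *Igfbp4*, *Napsa*, *Id2*, *Reg3g* and *Sfn* were chosen after their values were seen.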

Additional observations from a re-analysis of the deposited data

Results flagged for a closer look

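Among 64 groups of 4 control values tested for a library far from the others, 2 were found, and chance gives about 1 in 20. *Snx22*, one of the genes called higher in members than in negatives, stood at 38.1 CPM in control 1 against 28.8 to 29.96 in the other 3 control libraries. *Actb*, the cytoskeletal actin, stood at 2558 in control 2 against 2348 to 2383 in the other 3, and at 1902 and 2040 in members (members against controls -0.40, edgeR adjusted p = 0.166).

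Ciliated cells, which no comparison of AEC2s uses, carried *Esr1* UMIs above the level of the control libraries: 28 of 724 cells (3.87%) in knockout 1 and 16 of 534 (3.00%) in knockout 2, against 0% to 1.46% in the controls. Median depths were 13876 and 14519 UMIs in the knockout-labelled libraries and 10115 to 15519 in the controls. Unlike the gates of the other non-AEC2 classes, the ciliated gate kept barcodes with UMIs of *Lamp3*, an AEC2 gene. The source of these *Esr1* UMIs was not tested.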

How the results depend on the processing

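The number of genes called between members and negatives, 73, was 119 with 2 negatives per member, 33 with all 4 gate markers required, 10 for members with at least 2 *Esr1* UMIs, 37 with a filter of at least 1000 genes and under 10% mitochondrial UMIs, 1 with DESeq2, 1508 without depth matching, 0 without the library block, 46 without a low count filter, 41 with *Sftpc* at 2% or more of UMIs and 5 without barcodes that another library holds. The 5 genes between members and controls were 2 with at least 2 *Esr1* UMIs, 32 with DESeq2, 142 without a low count filter, 3 without shared barcodes, 1 of them among the 5, 2 without the top 5% of cells by UMIs and 2 to 168 with 1 library left out, the highest without knockout 2 and the lowest without control 4. The 4 genes between negatives and controls were, in the same settings, 1, 28, 107, 1, 3 and 1 to 268, the highest without knockout 2 and the lowest without knockout 1. The settings *Sftpc* at 2%, a robust prior and leaving out the smaller copy of a shared barcode were chosen after seeing the data. Some settings test fewer genes or cells, and the cause of the changed counts was not tested for any setting.

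The difference of *Slc39a8* between members and negatives, 0.00, was -0.0575 without shared barcodes, -0.0642 with at least 2 *Esr1* UMIs, 0.19 (adjusted p = 0.000183) without depth matching and -0.0505 to 0.0578 with 1 library left out. Between members and controls it was 0.0877 without depth matching, the highest value, and the lowest over the settings run was -0.1283. The positive share of knockout 1 was 23.5% with all 4 markers, 22.6% with *Sftpc* at 2% and 3.94% after thinning, and that of knockout 2 was 20.6% without shared barcodes and 4.37% after thinning. Between members and negatives the sign turned for *Lyz1* (-0.0949), *Scgb3a1* (3.11), *Scgb3a2* (0.26), *Bpifa1* (3.102) and *S100a6* (1.81) with at least 2 *Esr1* UMIs, for *Cd83* (-0.0095), *Itln1* (0.0085) and *Scgb3a1* (0.0589) without shared barcodes, and for *Scgb1a1* (0.0698) with *Sftpc* at 2%.

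Numbers 1 and 2 occur under both labels. With them as a replicate block, 33 genes were called between members and controls and 34 between negatives and controls, *Gt(ROSA)26Sor* (1.23, adjusted p = 0.0706) and *Cdkn1a* (1.20, adjusted p = 0.0819) no longer for members. Deviations of same-numbered libraries from their group means correlated by 0.03 and 0.14 for members and by 0.02 and 0.16 for negatives. Knockout 1 and control 4, which share no number, correlated by 0.18 for members and 0.20 for negatives. With 2 knockout-labelled libraries the deviations of one mirror those of the other, so these values cannot settle whether libraries were paired. The libraries were taken to share only a number.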

Other observations

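Y-linked genes were seen in 76.2% to 85.2% of the cells of each matched class and *Xist*, the transcript of the inactive X chromosome, in at most 1.21%. Erythroid genes, led by the haemoglobin *Hbb-bs*, summed to 245 and 13.2 CPM in members, 233 and 16.4 in negatives and 701, 127, 9.42 and 2508 in controls, so that they followed the library and not *Esr1*. *Scd1*, a lipid desaturase, was 13830 in members of knockout 1 and 5937 in members of knockout 2, against 4809 to 6399 in controls. The control cells with an *Esr1* UMI, 24 of 7238 gated cells, were mostly deep: their median depth was 67577, 47759, 62818 and 14547 UMIs in controls 1 to 4, and with *Sftpc* at 2% or more of UMIs 2, 0, 4 and 4 of them were left. In controls 1 to 4, 5, 2, 9 and 5 of them had a barcode that another library also held. Without such barcodes 0 of 939, 1 of 281, 0 of 533 and 2 of 2268 gated control cells were positive (0%, 0.356%, 0% and 0.0882%).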
